A study of Homo sapiens with 9 samples.

Results

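The SNAI, TWIST and ZEB transcription factors and the classical cadherins of epithelial-mesenchymal transition (EMT) were followed in U251 cells after infection with a sh-RNA against PTBP1. The 10 genes, SNAI1, SNAI2, TWIST1, TWIST2, ZEB1, ZEB2, CDH1, CDH2, CDH6 and CDH11, were taken by gene symbol from the 22295 entries of the expression table. The symbol rule itself used no values, but the set was chosen with earlier results of these data known. All 10 symbols were found. U251 is an established cell line from a human glioblastoma. The data are 9 RNA-seq libraries in 3 groups of 3, and the values are FPKM, which are fragment numbers divided by transcript length and by the library's mapped fragments.

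Every group received a lentivirus carrying an M-cherry marker. The sh-Luci-3d cells received a control sh-RNA against luciferase and were collected at 3 days post infection (dpi), and the sh-Ptbp1-3d and sh-Ptbp1-7d cells received the sh-RNA against PTBP1 and were collected at 3 and 7 dpi. In the paper's protocol, infected cells were moved at 2 dpi into neuronal induction medium. It contained N2, B27, forskolin and dorsomorphin, an inhibitor of AMPK and of BMP type I receptors. The paper does not restate the medium for the sequenced cells. Under that protocol the 7 dpi cells had spent more days in the medium. The series was analysed here without a sh-Luci group of 7 dpi, and time after infection, time in the medium and length of knockdown cannot be told apart in the comparisons with sh-Ptbp1-7d. PTBP1 is an RNA-binding regulator of splicing. The labels do not say whether the 3 libraries of a group came from separate cultures, so p-values measure only the spread between these libraries.

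In EMT, epithelial cells give up their junctions and take on a motile, mesenchymal state. The SNAI and ZEB factors are zinc finger repressors that bind E-box motifs, among them CACCTG, in the promoters of epithelial genes such as CDH1, and the TWIST factors are basic helix-loop-helix proteins that bind E-boxes as dimers. Classical cadherins are calcium-dependent adhesion proteins whose cytoplasmic tails bind catenins. CDH1 (E-cadherin) is the cadherin of epithelia, CDH2 (N-cadherin) of neural and mesenchymal cells, CDH11 (OB-cadherin) of mesenchymal cells and osteoblasts, and CDH6 (K-cadherin) of kidney and the developing neural crest. Gliomas are not epithelial, and glioma cells commonly carry CDH2 rather than CDH1.

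ZEB1 was the only one of the EMT factors that rose past the thresholds, and the E-box that ZEB1 itself can bind was looked for in front of the members' start sites. ZEB1 lies on GRCh38 at chr10:31318495-31529814 on the plus strand. Its first RefSeq start in the GRCh38.p14 table has upstream of it the 250 bases chr10:31318167-31318416, which lie before the gene's annotated start and overlap exons of the antisense gene ZEB1-AS1. They are the first such stretch of ZEB1 by position, and they hold CAGGTG, which reads CACCTG on the other strand. The capitals mark this motif, whose first base is at position -57 from the start.

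ZEB1 upstream window: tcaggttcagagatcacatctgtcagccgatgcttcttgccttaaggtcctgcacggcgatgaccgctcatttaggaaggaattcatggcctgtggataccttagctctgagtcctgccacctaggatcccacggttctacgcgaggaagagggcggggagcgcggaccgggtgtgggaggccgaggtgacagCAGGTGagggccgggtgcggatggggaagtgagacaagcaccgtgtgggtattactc

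Of the 10 genes, 4 had RefSeq windows of this kind, namely TWIST2, ZEB1, ZEB2 and CDH2. They had 11 windows in all, 7 of them for ZEB1. CACCTG, on either strand, was found in 2 of the 11, both of ZEB1. The printed window holds 1 copy and the window chr10:31318966-31319215 holds 2. Over all 35116 windows of 250 bases, 17.5% held it. The match is a description of these letters and not evidence of binding.

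The libraries were compared first. PTBP1, the targeted gene, was at 111, 112 and 124 FPKM in sh-Luci-3d, at 66.2, 64.4 and 61.0 in sh-Ptbp1-3d and at 49.7, 50.7 and 51.0 in sh-Ptbp1-7d, with no overlap between groups, so the libraries follow their labels. Library sh-Luci-3d replicate 3 stood somewhat apart, with a Pearson r across 11993 genes of 0.975 to each of the other replicates, which had 0.987 to each other. Values without it are given beside the results it moved most. Of 10 glioma and astroglial markers, 8 had a mean of at least 1 FPKM in every group, and GFAP and S100B had less. Of 8 epithelial cell markers 7 had a mean below 1 FPKM in each group. The exception was KRT19 in the groups of 3 dpi and CLDN4 in sh-Ptbp1-7d. These 8 markers leave out KRT8, KRT18 and TJP1, whose higher levels are given with the epithelial list below. The summed level of 8 fibroblast markers was 221 to 258 FPKM in sh-Luci-3d, 236 to 245 in sh-Ptbp1-3d and 511 to 594 in sh-Ptbp1-7d. Most of it was COL1A2. FBLN1 rose from a mean of 16.7 FPKM in sh-Ptbp1-3d to 80.7 in sh-Ptbp1-7d, with a limma adjusted p of 2.15e-08. PDGFRA had means of 1.44 and 2.28 FPKM, a log2 difference of 0.63 with an adjusted p of 0.00596, short of the fold. COL1A1 and PDGFRB had lower means at 7 dpi and were not called, and DCN, LUM and DPT had means of at most 0.073 FPKM. The highest values of these last genes were in sh-Ptbp1-3d replicate 3, with LUM at 0.203 FPKM and DCN and DPT at 0.101. The immune markers summed to 10.3 to 11.5, 10.7 to 11.4 and 16.1 to 18.9 FPKM, most of it CD68, with CD3E and MS4A1 at 0 in all libraries. The endothelial markers summed to at most 0.952 FPKM in any library.

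ZEB1, a repressor with a zinc finger cluster near each end, was 3-fold higher at 7 dpi. It was at 6.66, 7.07 and 4.58 FPKM in sh-Luci-3d, at 5.6, 6.3 and 6.0 in sh-Ptbp1-3d and at 19.4, 17.5 and 18.3 in sh-Ptbp1-7d. The lowest sh-Ptbp1-7d library was above every library of 3 dpi, while the groups of 3 dpi overlapped. ZEB2, its paralog with known roles in neural crest and neural development, did not share this pattern. It was at 6.10, 6.13 and 3.93 FPKM in sh-Luci-3d, at 5.0, 4.08 and 6.02 in sh-Ptbp1-3d and at 4.25, 4.4 and 3.13 in sh-Ptbp1-7d. The ZEB2 values of the 3 groups overlapped.

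TWIST1 had the highest level of the EMT factors at 3 dpi. It was at 9.09, 7.34 and 14.3 FPKM in sh-Luci-3d, at 13.4, 14.2 and 11.8 in sh-Ptbp1-3d and at 9.79, 7.91 and 8.86 in sh-Ptbp1-7d. The sh-Luci-3d libraries spanned the whole range of the other groups, with replicate 3 well above the others. TWIST2, its paralog, was listed at 0 in all 9 libraries.

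SNAI2 (SLUG), a repressor best known from the migrating neural crest, was the only EMT factor lower past the thresholds at 7 dpi. It was at 1.15, 1.5 and 1.03 FPKM in sh-Luci-3d, at 1.07, 1.2 and 1.35 in sh-Ptbp1-3d and at 0.651, 0.448 and 0.351 in sh-Ptbp1-7d. All 3 sh-Ptbp1-7d values lay below the lowest value of 3 dpi. SNAI1 (SNAIL), the closely related repressor of CDH1, was near 0. It was at 0.0614, 0.0226 and 0.0308 FPKM in sh-Luci-3d, at 0.0255 in a single sh-Ptbp1-3d library and 0 in the others, and at 0.143, 0 and 0.344 in sh-Ptbp1-7d. The sh-Ptbp1-7d libraries ranged from 0 to the highest SNAI1 value of the series, and no test was made because the gene was below the filter.

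**Figure D1:**
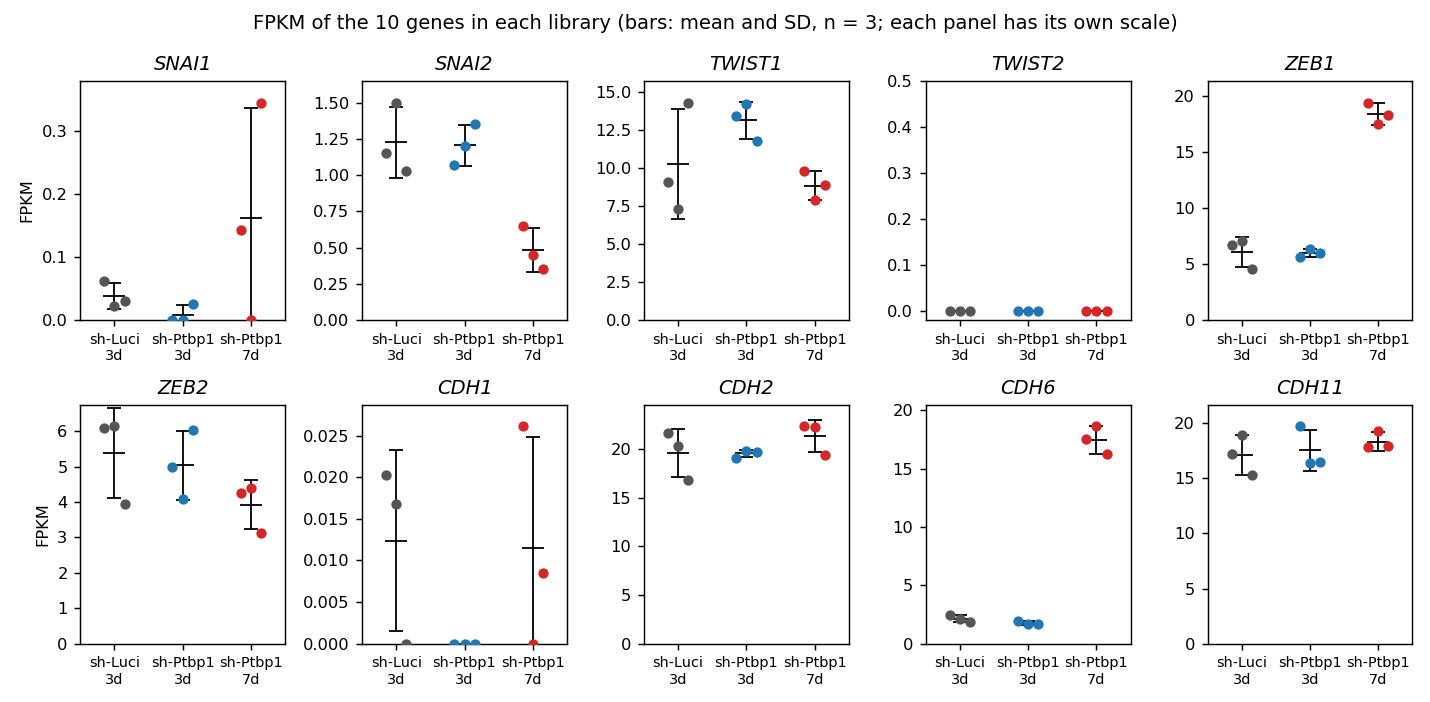
FPKM of each of the 10 genes (y axis, a scale of its own per panel) in the 9 libraries (points) of the 3 groups (x axis), with the mean and SD of 3 libraries as bars. ZEB1 and CDH6 were higher, and SNAI2 lower, in all 3 sh-Ptbp1-7d libraries than in any library of 3 dpi, TWIST2 was at 0 throughout, and CDH2 and CDH11 overlapped between groups.

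CDH6 had the largest difference of the 7 tested genes. It was at 2.45, 2.08 and 1.86 FPKM in sh-Luci-3d, at 1.97, 1.65 and 1.73 in sh-Ptbp1-3d and at 17.5, 18.6 and 16.2 in sh-Ptbp1-7d. The 3 libraries of 7 dpi were close to each other and far above those of 3 dpi, which overlapped. CDH6 lies at chr5:31193750-31329146 on the plus strand and overlaps the antisense gene AC113386.1, which is not in the table. The strand setting of the counting is not given in the sources used here, so reads of the antisense partners of CDH6 and ZEB1 cannot be told from those of the genes.

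CDH2, the cadherin with the highest level, and CDH11 varied little. CDH2 was at 21.6, 20.3 and 16.8 FPKM in sh-Luci-3d, at 19.1, 19.8 and 19.7 in sh-Ptbp1-3d and at 22.3, 22.2 and 19.4 in sh-Ptbp1-7d. CDH11 was at 17.2, 18.9 and 15.3 FPKM in sh-Luci-3d, at 19.7, 16.4 and 16.5 in sh-Ptbp1-3d and at 17.8, 19.3 and 17.9 in sh-Ptbp1-7d. The groups overlapped for both genes. CDH2 lies at chr18:27950966-28177446 and CDH11 at chr16:64943753-65126112, both on the minus strand. A locus assembled on the plus strand overlaps the start of CDH11 and had at most 0.367 FPKM. CDH1 was at 0.0203 and 0.0168 FPKM in replicates 1 and 2 of sh-Luci-3d and at 0.0261 and 0.00851 in replicates 1 and 3 of sh-Ptbp1-7d. It was listed at 0 in the other 5 libraries, so E-cadherin transcript was at or near 0 in each group.

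To ask which of these differences exceeded the spread between libraries, log2(FPKM + 0.1) was fitted with limma over the 15551 genes that averaged 0.1 FPKM or more. Of the 10 genes 7 passed this filter, and SNAI1, TWIST2 and CDH1 did not. A gene was called at a fold change above 2 with a Benjamini-Hochberg FDR below 0.05 at 3 dpi and below 0.01 in the comparisons with 7 dpi. Fold changes are on the log2(FPKM + 0.1) scale, which understates the change of low genes such as SNAI2. With 3 libraries a group, 0.1 is the smallest two-sided p that an exact permutation test of a single gene can give. In these bulk samples, fewer cells with a transcript and less of it per cell cannot be told apart.

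The comparison of sh-Ptbp1-3d with sh-Luci-3d asks what the knockdown did at 3 dpi. None of the 7 genes was called by limma, and the 2 groups overlapped for each of them, while for 10.8% of all genes tested they did not. Of all genes, 0.0129% were called, and 1126 had an unadjusted p under 0.05. The targeted gene PTBP1 was itself not called, although its groups did not overlap. Its log2 difference was -0.85, or 0.553-fold, with a limma adjusted p of 0.00314, past the FDR threshold but short of the fold. A gene that is not called here can therefore still have responded. The log2 differences of ZEB1, CDH2, SNAI2 and CDH11 were between -0.01 and 0.03, with adjusted p from 0.965 to 0.996. Their intervals still allow a difference, for ZEB1 from -0.33 to 0.31 and for CDH2 from -0.22 to 0.23. Without sh-Luci-3d replicate 3, ZEB1 was at -0.2, CDH2 at -0.1, SNAI2 at -0.12 and CDH11 at -0.05, and none was called. CDH6 was at -0.24 ± 0.129 (SE) with an adjusted p of 0.743, and ZEB2 at -0.08 ± 0.207 with 0.945. TWIST1 was at 0.41 ± 0.202 with an adjusted p of 0.717. This TWIST1 difference was made smaller by the library that stood apart. Without sh-Luci-3d replicate 3 it was 0.67 with an adjusted p of 0.0194, past the FDR threshold but not past the fold, and the number of all genes called was 59.

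The comparison of sh-Ptbp1-7d with sh-Ptbp1-3d asks what differed at the later time. There 3 of the 7 tested genes were called, beside 14.2% of all genes. ZEB1 and CDH6 were higher, beside 8.31% of all genes, and SNAI2 was lower, beside 5.90%. CDH6 rose by 3.22 ± 0.129 on the log2 scale, a 9.32-fold difference with a 95% interval of the log2 value from 2.94 to 3.50 and an adjusted p of 2.15e-08. ZEB1 rose by 1.61 ± 0.147, or 3.05-fold, with an interval from 1.29 to 1.93 and an adjusted p of 7.56e-06. SNAI2 fell by 1.19 on the log2 scale, to 0.439 of its level, with an SE of 0.229 and an adjusted p of 0.00144. With a pseudocount of 1 in place of 0.1 its log2 difference was -0.57 and the fold threshold was missed.

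The other tested genes did not pass. TWIST1 was at -0.57 ± 0.202, with an interval from -1.01 to -0.12 and an adjusted p of 0.038. In the fit without sh-Luci-3d replicate 3 its adjusted p was 0.00218 at the same log2 value, past the FDR threshold but not past the fold. Its groups did not overlap, as was so for 4 of the 7 genes and for 62.3% of all genes. ZEB2 was at -0.35, with an interval from -0.81 to 0.11. CDH2 was at 0.12, with an interval from -0.11 to 0.35, and CDH11 at 0.07, with an interval from -0.16 to 0.30. These intervals exclude a 2-fold difference in either direction for ZEB2, CDH2 and CDH11, but not for TWIST1. The median log2 difference of all genes tested was 0.09 here, and with other scalings of the libraries it moved to 0.19 (TPM) or -0.01 (quantile normalization). Relative to the median of 0.09, CDH6 was at 3.13, ZEB1 at 1.52, SNAI2 at -1.28, CDH2 at 0.03 and CDH11 at -0.02.

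Against sh-Luci-3d, sh-Ptbp1-7d gave the same 3 calls, beside 14.6% of all genes (8.93% higher and 5.68% lower). Both comparisons share the sh-Ptbp1-7d libraries. CDH6 rose by 2.98 with an adjusted p of 3.78e-08, ZEB1 by 1.6 with 7.8e-06, and SNAI2 fell by 1.2 with 0.00131. CDH2 was at 0.13, CDH11 at 0.10 and ZEB2 at -0.43, each with an interval that includes 0. Without sh-Luci-3d replicate 3, ZEB2 was at -0.64 with an adjusted p of 0.0144, short of both thresholds, and CDH2 and CDH11 were both at 0.02. TWIST1 was at -0.16 with an adjusted p of 0.545, and at 0.11 without sh-Luci-3d replicate 3. In this comparison 3 of the 7 genes were without overlap between groups, and 55.9% of all genes were.

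**Figure D2:**
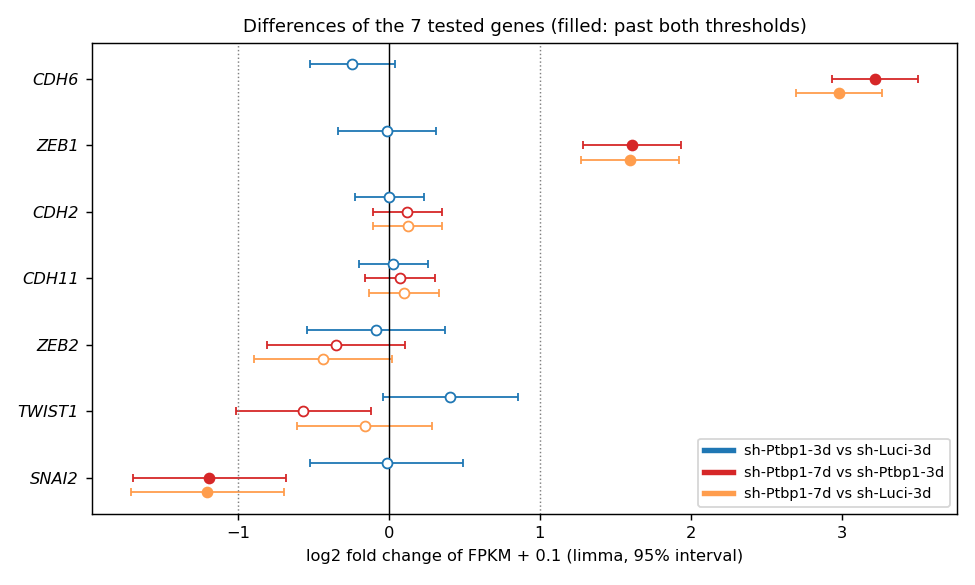
Log2 fold change of FPKM + 0.1 (x axis, points with 95% intervals from limma) of the 7 tested genes (y axis) in the 3 comparisons (colours), with dotted lines at a 2-fold change. CDH6 and ZEB1 lie to the right of the 2-fold line and SNAI2 to the left of the opposite one in both comparisons with 7 dpi, and no gene is called in the comparison of 3 dpi.

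The paralogs diverged. The ratio of ZEB1 to ZEB2 was 1.09, 1.15 and 1.17 in the sh-Luci-3d libraries, 1.12, 1.54 and 0.997 in sh-Ptbp1-3d and 4.57, 3.99 and 5.85 in sh-Ptbp1-7d. Being a ratio within a library it does not depend on the scaling of the libraries, and the groups of 3 dpi do not reach the values of 7 dpi. In the same way the ratio of CDH6 to CDH2 was 0.113, 0.102 and 0.111 in sh-Luci-3d, 0.103, 0.0833 and 0.0878 in sh-Ptbp1-3d and 0.784, 0.838 and 0.838 in sh-Ptbp1-7d. The ratio of SNAI2 to ZEB1 was from 0.172 to 0.226 in the libraries of 3 dpi and from 0.0192 to 0.0335 at 7 dpi. The ratio of CDH2 to CDH11 stayed between 0.968 and 1.26 in all 9 libraries. These ratios are given as a description, without a test of their own.

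As FPKM is scaled by length, levels can be set side by side. The 6 EMT factors summed to 23.0 ± 0.923 FPKM (SD, n = 3) in sh-Luci-3d, to 25.4 ± 0.402 in sh-Ptbp1-3d and to 31.8 ± 2.12 in sh-Ptbp1-7d. ZEB1 made up 26.7% ± 6.72 of the sum in sh-Luci-3d, 23.5% ± 1.09 in sh-Ptbp1-3d and 57.9% ± 1.17 in sh-Ptbp1-7d. TWIST1 made up 44.2% ± 14, 51.8% ± 4.44 and 27.8% ± 1.43. The leading EMT factor by level was thus TWIST1 in all 3 sh-Ptbp1-3d libraries and ZEB1 in all 3 sh-Ptbp1-7d libraries. TWIST1 was also above ZEB1 in each sh-Luci-3d library, with ratios of 1.36, 1.04 and 3.13.

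Among the cadherins, the share of CDH6 was larger and that of CDH10 smaller at 7 dpi. Over the 18 classical cadherins in the table, the sum was 69.8 ± 6.29 FPKM in sh-Luci-3d, 68.8 ± 2.49 in sh-Ptbp1-3d and 76.4 ± 3.34 in sh-Ptbp1-7d. CDH6 had a share of 3.05% ± 0.233, 2.59% ± 0.179 and 22.8% ± 0.665 of it. CDH10, a type II cadherin of the nervous system, had 23.8% ± 2.75, 21.0% ± 0.540 and 7.17% ± 0.399. The shares of CDH2 were 28.0%, 28.4% and 27.8%, and those of CDH11 24.6%, 25.4% and 24.0%.

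**Figure D3:**
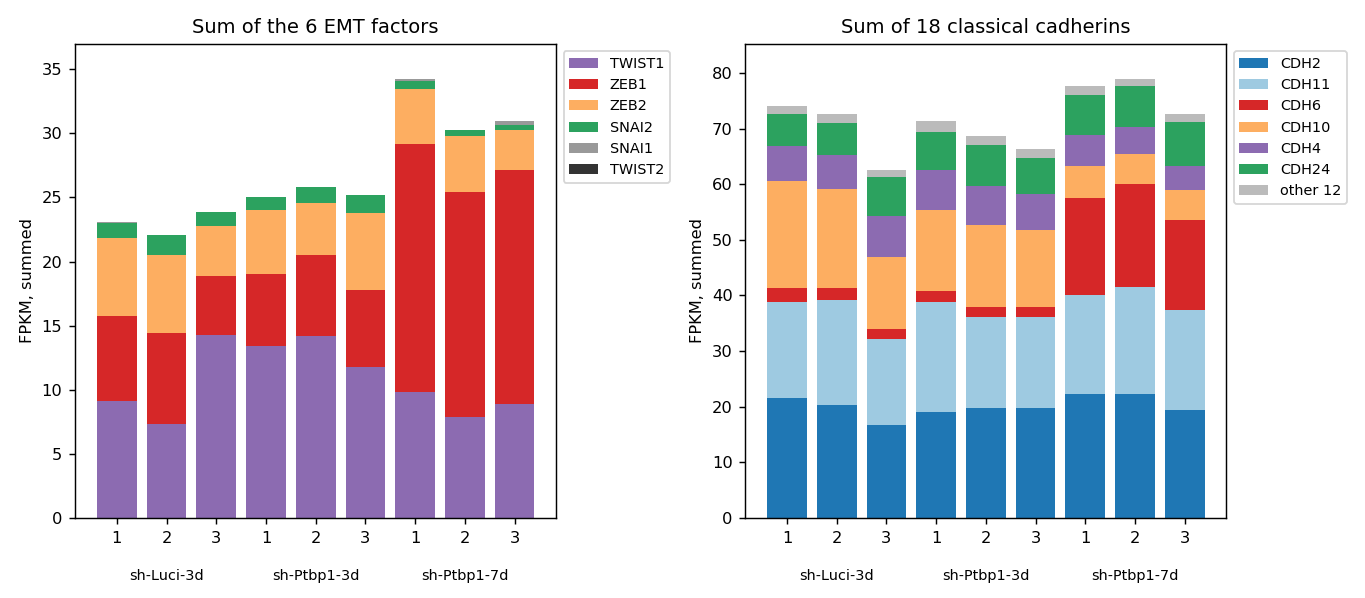
FPKM (y axis) summed over the 6 EMT factors (left) and over the 18 classical cadherins in the table (right) for each library (x axis, replicates 1 to 3 of each group), with a colour per gene. In the sh-Ptbp1-7d bars ZEB1 takes 57.9% of the EMT factor sum and CDH6 22.8% of the cadherin sum on average, while CDH10 is shorter than in the bars of 3 dpi.

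In order of level, the sh-Luci-3d and sh-Ptbp1-3d groups were alike, with CDH2 and CDH11 highest, then TWIST1, then ZEB1 and ZEB2, then CDH6 and SNAI2, and the rest near 0. CDH2 and CDH11 overlapped in their libraries, as did ZEB1 and ZEB2, and the other neighbours down to SNAI2 did not. By mean level CDH2 stood above 84.9% of all entries in sh-Luci-3d, ZEB1 above 66.4% and CDH6 above 53.2%. In sh-Ptbp1-7d the order was CDH2, ZEB1, CDH11 and CDH6, whose neighbours all overlapped, and then TWIST1, ZEB2 and SNAI2, which did not. There ZEB1 stood above 83.4% of all entries and CDH6 above 82.6%.

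The other genes of the pathway were taken from 7 lists of 113 genes, of which 89 were tested. From 3 to 7 dpi of sh-Ptbp1, 12 of the 89 rose and 10 fell, beside 8.31% of all genes tested that were higher and 5.90% that were lower, and their median log2 difference was 0.07 beside 0.09 over all genes. At 3 dpi limma called 0 of the 89, also under each of the 20 alternatives. The counts of each list below stand beside the same 8.31% and 5.90% of all genes. The values compare sh-Ptbp1-7d with sh-Ptbp1-3d, and the same 22 genes passed against sh-Luci-3d.

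The other classical cadherins numbered 14, of which 6 were tested, 1 rose and 2 fell, with a median log2 difference of -0.70. CDH10 had 14.6, 14.8 and 13.9 FPKM in sh-Ptbp1-3d and at 5.58, 5.33 and 5.48 in sh-Ptbp1-7d, and fell by 1.39 on the log2 scale with an adjusted p of 9.76e-06. CDH5 (VE-cadherin), which is endothelial, and CDH15 (M-cadherin), which is muscular, passed at levels below 1 FPKM. CDH5 fell by 1.91 and CDH15 rose by 1.36. Neither was called with a pseudocount of 1. CDH5 was also not called with no filter on low values, without sh-Ptbp1-3d replicate 1 or without sh-Ptbp1-7d replicate 2. Against sh-Luci-3d its call was lost without sh-Luci-3d replicate 2 or sh-Ptbp1-7d replicate 1 or 2.

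Of the 9 catenins, which link cadherins to actin or to intermediate filaments, 7 were tested, and their median was 0.03. JUP (plakoglobin), a catenin of adherens junctions and desmosomes, was the only call. It had 27.8, 25 and 23.5 FPKM in sh-Ptbp1-3d and at 129, 117 and 130 in sh-Ptbp1-7d, a rise of 2.30 ± 0.0912 with an adjusted p of 2.15e-08. Its sh-Luci-3d libraries were at 23.3, 22.2 and 26.0. The main partner of classical cadherins, CTNNB1 (beta-catenin), had 105, 110 and 103 FPKM in sh-Ptbp1-3d and at 109, 114 and 101 in sh-Ptbp1-7d, a log2 difference of 0.03 with an adjusted p of 0.767.

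The epithelial list held 22 genes, of which 13 were tested, 2 rose and 1 fell, with a median of 0.22. The tight junction claudin CLDN1 rose by 1.88, from a mean of 0.881 to 3.52 FPKM. CLDN4 was just past the threshold at 1.04 and was called in only 5 of 19 alternatives. The keratin KRT19 had 1.90, 1.59 and 1.44 FPKM in sh-Ptbp1-3d and listed at 0 in all 3 sh-Ptbp1-7d libraries, so no fold is given.

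The mesenchymal list, with 21 of 22 genes tested, had 6 rises and 5 falls, beside 8.31% and 5.90% of all genes, and a median of 0.10. The matrix metalloprotease MMP2 rose by 2.35, from 24.5, 24.3 and 26.1 FPKM to 129, 126 and 128. LOX, which crosslinks collagen, rose by 1.89, while its paralog LOXL2 fell by 2.85, from 182, 186 and 174 FPKM to 27.5, 25.2 and 22.4. Further calls, named after their values were seen, were rises of COL1A2, ACTA2, POSTN and TNC and falls of VIM, S100A4 and CD44. POSTN, at a mean of 0.444 FPKM in sh-Ptbp1-7d, was not called with a pseudocount of 1. VIM (vimentin), the intermediate filament protein commonly used as a mesenchymal marker, had 4450, 4490 and 4210 FPKM in sh-Ptbp1-3d and at 1090, 1160 and 1250 in sh-Ptbp1-7d. FN1 (fibronectin) was at 52.3, 53.4 and 50.6 and at 61.4, 60.5 and 46.5, with a log2 difference of 0.10 and an adjusted p of 0.541. In the same libraries the summed fibroblast markers, mostly COL1A2, and immune markers, mostly CD68, were higher. The summed glioma markers were lower, but most of that sum was VIM itself. Among the other glioma markers, S100B, at a mean of 0.797 FPKM in sh-Ptbp1-7d, was called higher, by 2.08 with a limma adjusted p of 0.00202. SOX2 and NFIA also had higher means at 7 dpi, and NES, SOX9, GFAP, CD44, FABP7 and EGFR lower ones. COL1A2, VIM and CD44 are in the mesenchymal list too, so these sums are not separate from its values. Any part of the cell makeup was not tested.

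**Figure D4:**
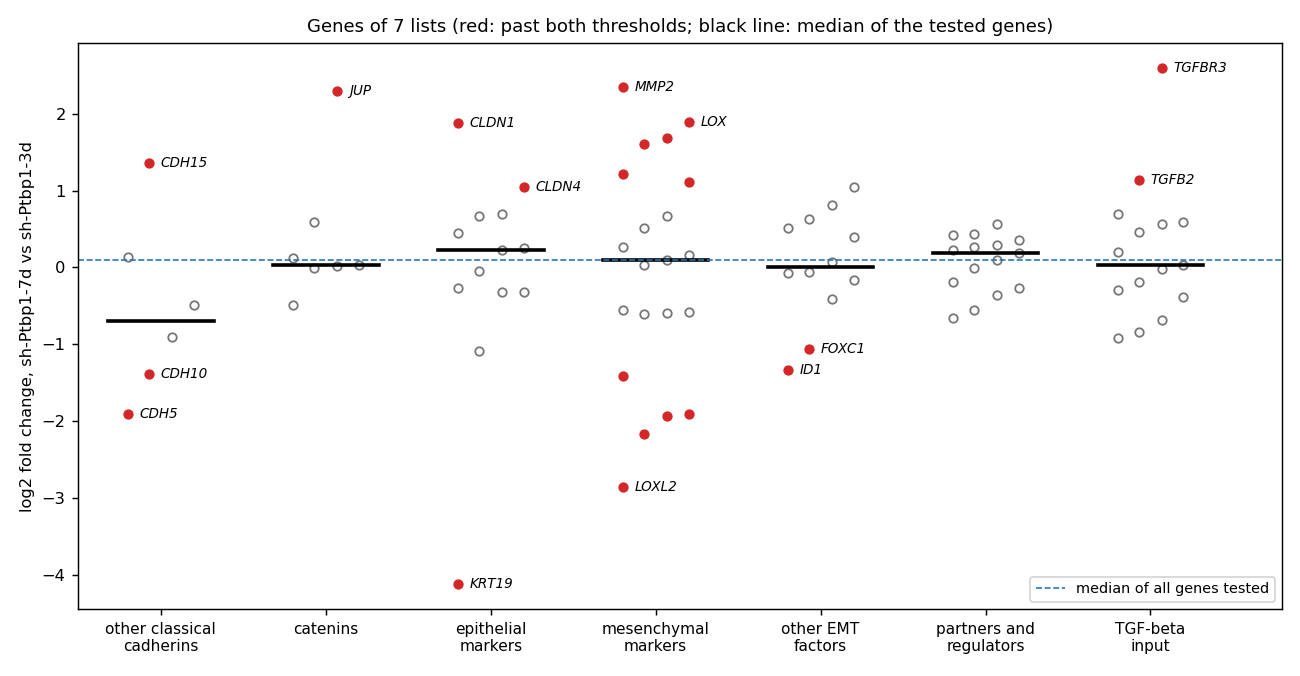
Log2 fold change of sh-Ptbp1-7d over sh-Ptbp1-3d (y axis) of the tested genes of the 7 lists (x axis), with called genes filled in red, medians as black bars and the median of all genes as a dashed line. The mesenchymal list has calls on both sides, 6 above and 5 below, and the partners and regulators have none. KRT19, listed at 0 at 7 dpi, is drawn at the value that the pseudocount gives.

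Among 16 other EMT factors 12 were tested and 2 fell, with a median near 0. ID1, an inhibitor of basic helix-loop-helix factors and a target of BMP signalling, fell by 1.33, from a mean of 28.7 to 11.4 FPKM. The forkhead factor FOXC1 fell by 1.06, from a mean of 5.44 to 2.55 FPKM, and was not called with a pseudocount of 1 or in TPM, nor, against sh-Luci-3d, without replicate 3 of that group. All 15 corepressors, ubiquitin ligases and other regulators of the EMT factors were tested and limma called 0 of them, with a median of 0.19. Of the 15 genes of TGF-beta input, which is a known inducer of SNAI and ZEB genes, 2 rose and 0 fell, with a median of 0.03. TGFBR3 (betaglycan), a coreceptor, rose by 2.59, from 0.940, 0.962 and 1.07 FPKM to 7.10, 6.87 and 5.54. The ligand TGFB2 rose by 1.13, from 11.7, 12.8 and 12.3 FPKM to 27.2, 29.2 and 24.9. Other genes of this list, named after their values were seen, passed the FDR threshold but not the fold. Of these, SMAD3 fell by 0.85 with a limma adjusted p of 1.26e-05 and the ligand TGFB1 by 0.68 with 0.000179. TGFBR2, SMAD2, SMAD4 and LTBP1 rose.

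For the EMT factor and the cadherin with the highest mean level, the genes with the most similar course were sought by Pearson r of log2(FPKM + 0.1) over the 9 libraries among 11339 genes that averaged 1 FPKM or more. For TWIST1 these were POLR2I (r = 0.993), RHBDL1 (0.984) and BTBD6 (0.974). For CDH2 they were RAB8B (0.990), EFR3A (0.979) and ERCC4 (0.976). All of these values come from the same 9 libraries and share their scaling, and they are a description. Neither TWIST1 nor CDH2 was called in any comparison, so r also follows differences between libraries of a group. The library that stood apart, sh-Luci-3d replicate 3, had the highest TWIST1 value, 14.3 FPKM, and the lowest CDH2 value, 16.8. No r was computed without it.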

How the data were processed

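RNA-seq of U251 cells was used, 3 libraries per group, grouped by the labels. Reads came from an Illumina HiSeq. The authors filtered and aligned them to the reference and deposited FPKM per gene and library. The submitters' processing notes name HISAT2 and GRCh38, and the counting program is not given in the sources used here. The authors also deposited positions of loci assembled by StringTie, another kind of value, used here only for overlaps. FPKM without counts leave the depth unknown.

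From FPKM, log2(FPKM + 0.1) of genes averaging 0.1 FPKM or more was fitted with limma 3.58.1 (R 4.3.3), with 3 groups in a single model and an intensity trend, after a test on simulated data. The Benjamini-Hochberg adjustment of p-values covered 15551 genes. From each list, the 2 largest rises and 2 largest falls past the thresholds from 3 to 7 dpi of sh-Ptbp1 were named, except where an item is not reported here. The members and lists were chosen with earlier results of these data known. Positions come from GENCODE v29. Alternatives were other pseudocounts, filters, scalings, leaving out assembled loci, no trend, a replicate block, the groups compared alone and leaving out each library.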

Additional observations from a re-analysis of the deposited data

How the results depend on the processing

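ZEB1 and CDH6 were called in both comparisons with sh-Ptbp1-7d under all 20 alternatives, ZEB1 with log2 differences from sh-Ptbp1-3d of 1.48 to 1.72 and CDH6 of 2.73 to 3.36. SNAI2 was called in all but 1 of the 19 alternatives that tested it. With a pseudocount of 1 it was at -0.57 against sh-Ptbp1-3d and -0.59 against sh-Luci-3d, short of the fold, and a mean of at least 1 FPKM removed it from the test. The members called were 2 to 3 in these comparisons and 0 at 3 dpi.

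The number of all genes called in sh-Ptbp1-3d against sh-Luci-3d was 2, and 1 with a pseudocount of 0.01, TPM, a filter at a mean of 1 FPKM, median-ratio scaling, quantile normalization or no trend, 0 with only the 2 groups compared, and 0 to 59 when a library was left out, with 59 without sh-Luci-3d replicate 3. With a pseudocount of 1 the numbers in sh-Ptbp1-7d were 1255 against sh-Ptbp1-3d, where 2211 were called, and 1269 against sh-Luci-3d, where 2271 were. Of these 2271, 61.1% were higher, and 49.2% under quantile normalization.

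At 3 dpi the sign of differences near 0 turned. CDH2, at 0.0045, was at -0.02 in TPM, -0.0061 with median-ratio scaling and -0.02 with quantile normalization. Leaving out a library gave -0.1 to 0.08 for CDH2, with -0.0058 and -0.0025 without sh-Ptbp1-3d replicates 2 and 3, -0.06 to 0.1 for CDH11, -0.12 to 0.13 for SNAI2, -0.2 to 0.11 for ZEB1 and -0.29 to 0.05 for ZEB2. TWIST1 in sh-Ptbp1-7d against sh-Luci-3d ranged from -0.37 to 0.11, and against sh-Ptbp1-3d its adjusted p ranged from 0.00203 to 0.125 over the alternatives. The cause was not tested.

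Libraries with the same replicate number did not deviate together, with correlations of -0.0185 to 0.0583, so the numbers were not taken as pairs. Between different numbers the correlations ran from -0.122 to 0.161. With the replicate block, 0 genes were called in sh-Ptbp1-3d against sh-Luci-3d, 2140 in sh-Ptbp1-7d when set against sh-Ptbp1-3d and 2217 against sh-Luci-3d, and the members called were 0, 3 and 3. Depth is unknown, so no counting error can be given for the low values of SNAI1 and CDH1.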
